A study of Mus musculus with 12 samples.

Results

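Described here are the genes of the secreted Wnt ligands, of their Frizzled receptors and of 2 families of secreted Wnt inhibitors in medullary thymic epithelial cells (mTECs) of the mouse. The members were taken by symbol: every Wnt ligand gene, every Fzd gene with a number, Sfrp1 to Sfrp5 and Dkk1 to Dkk4. The rule found 37 of the 50600 gene identifiers counted, of which 19 are ligands, 10 are receptors, 4 are Sfrp genes and 4 are Dkk genes. All 37 passed the filter on low counts in both fits used below. RNA sequencing of polyadenylated RNA was compared between mTECs that carry much MHC class II (mTEC hi) and mTECs that carry little of it (mTEC lo), in 6 libraries each. The primary cells came from thymi of mice aged 6 to 8 weeks of strain B6.B6CB-Psmb11tm1Smta, either Psmb11-deficient (Psmb11-/-) or wild type (WT, Psmb11+/+). Psmb11 encodes beta5t, the catalytic proteasome subunit of cortical thymic epithelium. In 8 libraries all labels name the same genotype: 2 Psmb11-deficient and 2 WT libraries for each cell type. In the other 4 the title names one genotype and the source name and strain name the other, so these libraries entered the comparison of cell types and no main genotype contrast; they have a genotype only in alternatives that take it from the title or the source name. The labels do not say whether libraries came from separate animals, so p-values cover no more than the spread among these libraries, and that spread may be technical.

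Wnt proteins are lipid-modified signals that bind the extracellular domain of Frizzled receptors. Together with the co-receptors Lrp5 and Lrp6 this stabilises beta-catenin, which enters the nucleus and acts with Tcf and Lef factors. Some ligands, Wnt5a and Wnt11 among them, are best known for signalling without beta-catenin, in cell polarity and movement. Sfrp proteins carry a domain related to that of Frizzled and bind Wnt proteins outside the cell, and Dkk1, Dkk2 and Dkk4 bind Lrp5 and Lrp6. In the thymus, Wnt4 and Wnt5b made by epithelial cells are known to regulate Foxn1, the transcription factor that thymic epithelium requires. mTEC hi cells, many of which hold Aire, transcribe many genes that are otherwise restricted to other tissues.

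Each library held between 38791960 and 86793594 reads at genes. Psmb11 itself had 0.847 and 1.30 CPM in the Psmb11-deficient libraries, against 10.3 and 7.54 CPM in the WT libraries of mTEC hi. In mTEC lo it had 1.63 and 1.17 CPM in the Psmb11-deficient libraries, against 12.2 and 7.51 CPM in the WT libraries. The 4 libraries with conflicting labels followed their titles: 1.12 and 1.26 CPM in those titled KO, and 8.16 and 7.10 CPM in those titled WT. Of the markers of mature mTECs (Aire, Cd80, Cd86, Cd40, Tnfrsf11a and Fezf2) 6 of 6 were higher in mTEC hi, with a summed level of 2934 to 3574 CPM in mTEC hi against 350.8 to 442 CPM in mTEC lo. Immature mTEC markers summed to 616 to 709.9 CPM in mTEC hi against 4654 to 5726 CPM in mTEC lo, with 4 of 5 lower, and tuft cell markers to 262 to 390.1 CPM in mTEC hi against 1264 to 1926 CPM in mTEC lo, with 6 of 6 lower. General epithelial markers summed to 3960 to 4462 CPM in mTEC hi against 9709 to 11581 CPM in mTEC lo, with 1 higher and 4 lower of 6. Cortical markers summed to 388.5 to 447 CPM in mTEC hi against 1812 to 2291 CPM in mTEC lo, with 2 higher and 3 lower of 6. B cell markers were higher in mTEC hi in 6 of 6 (69.1 to 73.6 CPM in mTEC hi against 11.5 to 17.7 CPM in mTEC lo), and markers of dendritic cells and macrophages in 9 of 11, with 1 lower (575 to 625 CPM in mTEC hi against 126 to 160.1 CPM in mTEC lo). Fibroblast and pericyte markers had 5 higher and 4 lower of 10 (916 to 961 CPM in mTEC hi against 928 to 1052 CPM in mTEC lo), endothelial markers 1 higher and 3 lower of 7, and thymocyte markers 7 higher and 2 lower of 14. No marker was at 0 in either cell type, and the part of these cells in the results below was not tested. In such bulk samples, fewer cells of a type and less RNA per cell cannot be told apart.

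The ligand genes and the receptor genes moved in different directions between the cell types: most Wnt ligands were higher in mTEC hi than in mTEC lo, while most Frizzled genes were lower. Over all members, 35 of 37 differed at an adjusted p under 0.05 in edgeR's quasi-likelihood test, 94.6% against 82.1% of the 23923 genes tested. Of these, 23 rose (62.2%, against 44.2% of all genes) and 12 fell (32.4%, against 38.0%), and Fzd5 and Sfrp5 did not pass. By role, 15 ligands rose and 4 fell, 3 receptors rose and 6 fell, 2 Sfrp genes rose and 1 fell, and 3 Dkk genes rose and 1 fell. The median log2 fold change, mTEC hi over mTEC lo, was 2.55 for the ligands and -1.05 for the receptors, beside 0.08 over all genes tested. A rise of at least 8-fold was called for 12 members (32.4%, against 18.0% of all genes), namely 7 ligands, 2 Sfrp and 3 Dkk genes and no receptor. The filter on low counts can be met in mTEC hi alone, for members as for all genes. A gene that met it only there could hardly be called other than higher. This held for Wnt1, Wnt7a, Wnt8a, Wnt8b, Wnt9b, Wnt16, Fzd9, Sfrp2, Sfrp4, Dkk1 and Dkk4. Among them, Wnt9b had 0 to 0.172 CPM and Dkk4 0 to 0.0377 CPM in mTEC lo. Of the members called at least 8-fold higher, only Wnt2b, Wnt3, Wnt10b and Dkk2 also met the filter in mTEC lo. The counts of rises, the 8-fold share and the ligand median are therefore no independent support for a rise. A fall of at least 2-fold was called for 11 members, where 12.6% of all genes fell as much. The library values of the cell types did not overlap for 33 members (89.2%, against 68.8% of all genes), the exceptions being Wnt9a, Wnt16, Fzd5 and Sfrp5. Scaled by library size alone, the median of all genes moved by 0.29 on the log2 scale and 67.0% of called genes were higher in place of 53.8%. The direction was the same for all 37 members under each scaling tried, with 25 higher and 12 lower by library size and 24 and 12 by RLE factors.

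**Figure D1:**
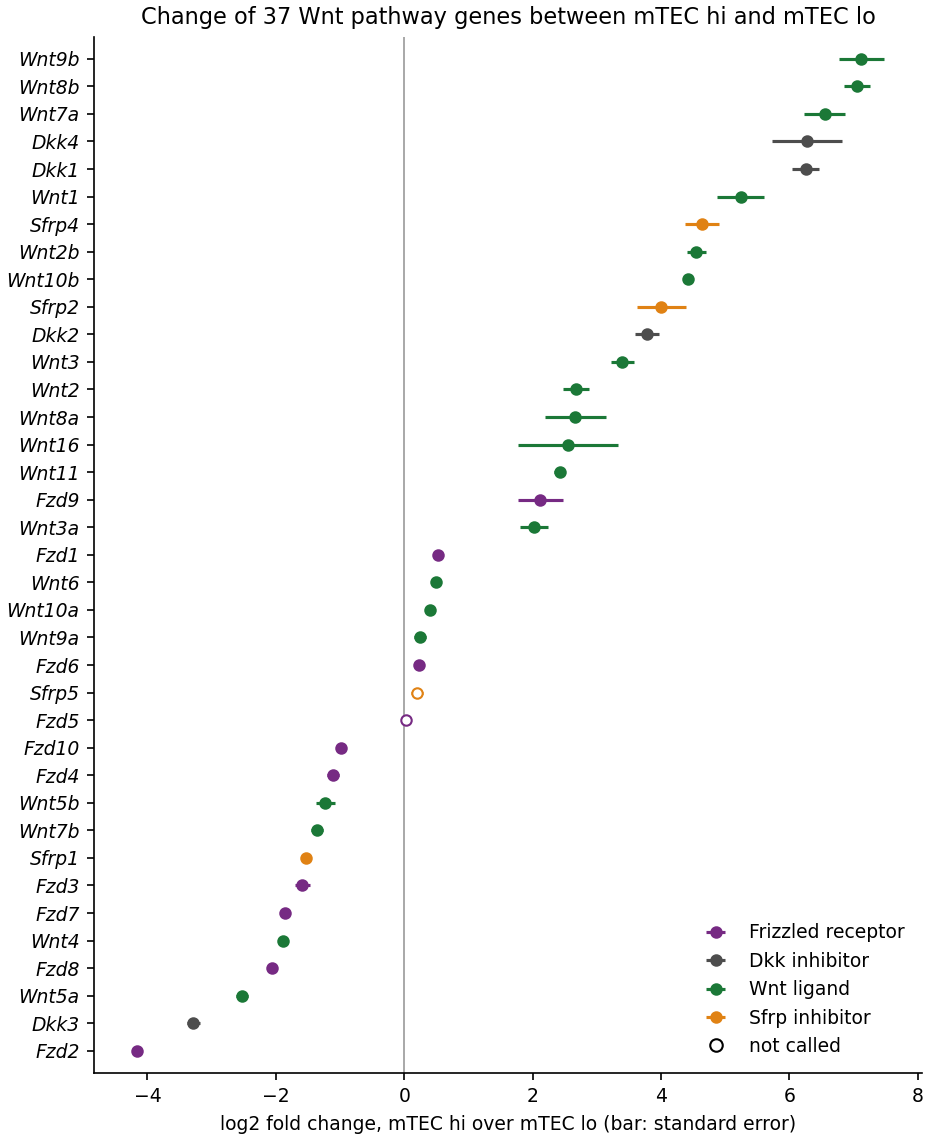
Log2 fold change of the 37 genes, mTEC hi over mTEC lo, from the edgeR fit over 12 libraries, with bars for the standard error; open points did not pass the adjusted p of 0.05. Wnt9b, Wnt8b and Wnt7a stand at the top with 7.12, 7.06 and 6.55, and Fzd2 at the bottom with -4.17.

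To show the upstream DNA of the genes on which these results turn, 5 promoter windows are given, from 250 bases before to 50 bases after the RefSeq start of the gene (GRCm38.p6), 5′ to 3′ on the strand of the gene, with CpG pairs in capitals. They belong to the ligand with the highest level in mTEC hi (Wnt10b, chr15:98778101-98778400, minus strand), to its divergent neighbour (Wnt1, chr15:98789607-98789906, plus strand), to a ligand nearly without reads in mTEC lo (Wnt8b, chr19:44493222-44493521, plus strand), and to the ligand and the receptor with the highest levels in mTEC lo (Wnt4, chr4:137277385-137277684, and Fzd7, chr1:59481897-59482196, both plus strand).
Wnt10b: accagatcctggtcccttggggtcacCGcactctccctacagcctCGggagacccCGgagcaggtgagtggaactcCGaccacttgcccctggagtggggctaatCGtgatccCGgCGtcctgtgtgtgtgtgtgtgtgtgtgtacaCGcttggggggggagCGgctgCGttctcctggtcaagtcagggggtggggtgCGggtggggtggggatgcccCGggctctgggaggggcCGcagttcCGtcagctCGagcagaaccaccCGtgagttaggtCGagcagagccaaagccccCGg
Wnt1: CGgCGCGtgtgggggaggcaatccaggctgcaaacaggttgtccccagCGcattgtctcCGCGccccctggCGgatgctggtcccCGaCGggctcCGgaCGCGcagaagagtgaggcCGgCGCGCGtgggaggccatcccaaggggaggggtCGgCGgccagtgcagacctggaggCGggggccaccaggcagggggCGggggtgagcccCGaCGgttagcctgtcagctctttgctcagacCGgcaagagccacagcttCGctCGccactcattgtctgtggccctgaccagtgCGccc
Wnt8b: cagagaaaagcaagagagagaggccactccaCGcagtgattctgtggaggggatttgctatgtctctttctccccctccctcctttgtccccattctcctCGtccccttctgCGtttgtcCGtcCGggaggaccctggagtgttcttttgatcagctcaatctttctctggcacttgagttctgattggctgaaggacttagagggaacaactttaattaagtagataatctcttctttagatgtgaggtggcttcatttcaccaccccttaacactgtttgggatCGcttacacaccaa
Wnt4: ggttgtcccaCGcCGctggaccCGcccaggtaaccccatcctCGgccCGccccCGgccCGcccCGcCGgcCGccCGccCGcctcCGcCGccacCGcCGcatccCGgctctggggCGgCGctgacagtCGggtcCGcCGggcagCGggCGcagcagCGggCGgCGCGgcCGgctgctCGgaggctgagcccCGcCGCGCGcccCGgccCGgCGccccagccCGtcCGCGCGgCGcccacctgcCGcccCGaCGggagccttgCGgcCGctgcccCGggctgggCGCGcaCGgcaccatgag
Fzd7: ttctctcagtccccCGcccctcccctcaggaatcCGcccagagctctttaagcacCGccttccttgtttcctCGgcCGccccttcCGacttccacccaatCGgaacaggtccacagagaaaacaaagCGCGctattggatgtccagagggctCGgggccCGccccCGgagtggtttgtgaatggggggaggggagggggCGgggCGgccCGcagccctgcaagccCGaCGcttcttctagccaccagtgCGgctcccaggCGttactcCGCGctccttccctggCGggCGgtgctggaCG
CpG pairs numbered 18 for Wnt10b, 26 for Wnt1, 6 for Wnt8b, 51 for Wnt4 and 24 for Fzd7. The GENCODE M21 starts of Wnt4 and Fzd7 differ from the RefSeq starts. Their windows begin 104 and 527 bases before the GENCODE start, so that of Fzd7 ends before it. Windows of 25 of the 37 members were used, 28 in all. Their median observed over expected ratio of CpG pairs was 0.754, against 0.384 for all 32851 promoter windows. The letters GGGCGG, searched on both strands, were found in 75.0% of the members' windows and 35.7% of all windows. TATAAA was found in 14.3% and 13.6%, and TCAAAG, the core of the Tcf and Lef motif, in 14.3% and 16.0%. The median CpG ratio was 0.753 over the 19 windows of 18 members that rose and 0.810 over the 7 windows of 5 members that fell. Wnt5b alone gave windows at 1.06, 0.194 and 0.314 among the latter. Only 5 of the 12 members that fell had a window in use, so the 2 medians are not a comparison of risen and fallen members as such. These are descriptions of the letters in the windows and not of factor binding.

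Of the ligands that rose most, 4 had almost no reads in mTEC lo. Wnt9b, which induces kidney tubules in the embryo, had 6.15, 7.21 and 8.296 CPM as lowest, median and highest library of mTEC hi, against 0, 0.0164 and 0.172 CPM in mTEC lo (log2 fold change 7.12, SE 0.357). Wnt8b, a gene of the embryonic forebrain, had 16.5, 17.8 and 19.5 CPM in mTEC hi, against 0.0363, 0.105 and 0.292 CPM in mTEC lo (7.06, SE 0.204). Wnt7a, known from dorsal limb and neural development, had 4.06, 4.69 and 5.73 CPM in mTEC hi, against 0, 0.0354 and 0.124 CPM in mTEC lo (6.55, SE 0.317). These 3 genes were detected in each mTEC hi library at more than 10 times any mTEC lo library, and their reads numbered 2772 in mTEC hi and 17 in mTEC lo, 6965 in mTEC hi and 46 in mTEC lo, and 1857 in mTEC hi and 17 in mTEC lo. Wnt1, the founding member of the family and required for the midbrain, had 1.502, 1.88 and 1.95 CPM in mTEC hi, against 0, 0.0362 and 0.113 CPM in mTEC lo (5.24, SE 0.362). It had 16 reads in mTEC lo. With so few mTEC lo reads, single libraries moved these folds: Wnt9b was at 8.09 without mTEC lo replicate 3 titled KO, and Wnt7a at 7.17 without mTEC lo Psmb11-deficient replicate 1. Adjusted p-values in edgeR were 4.75e-12, 2.90e-15, 2.98e-12 and 3.99e-10 in the order given. All 4 genes met the filter on low counts in mTEC hi alone, so these p-values are no independent support for a rise.

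Further ligands rose strongly but kept a measurable level in mTEC lo. Wnt10b, which promotes bone formation and restrains fat cell formation, had 84.7, 91.7 and 94.3 CPM in mTEC hi, against 3.32, 4.35 and 4.79 CPM in mTEC lo. Its log2 fold change of 4.42 (SE 0.0788, adjusted p 1.13e-17, edgeR) was large beside the spread, with a coefficient of variation of 4.04% over the mTEC hi libraries. Wnt2b, known from retina and lung development, had 13.4, 17.6 and 18.9 CPM in mTEC hi, against 0.481, 0.734 and 0.965 CPM in mTEC lo (4.55, SE 0.1403). All mTEC hi libraries of these genes lay far above all mTEC lo libraries. Wnt3, needed for formation of the primitive streak, had 7.96, 8.86 and 9.39 CPM in mTEC hi, against 0.472, 0.811 and 1.21 CPM in mTEC lo (3.40, SE 0.178). Wnt2, a lung and placenta ligand, had 2.97, 3.91 and 4.92 CPM in mTEC hi, against 0.363, 0.613 and 0.915 CPM in mTEC lo (2.68, SE 0.198). Wnt11, a ligand of cell movement and ureteric branching, had 22.2, 23.7 and 26.1 CPM in mTEC hi, against 4.01, 4.305 and 5.09 CPM in mTEC lo (2.42, SE 0.08397). Exons of Wnt11 overlap the opposite-strand gene Gm8398, and the libraries do not mark strand, so reads over the overlap cannot be assigned to either gene. Wnt3a, which acts in somites and hippocampus, was low in both cell types, with 1.24, 1.62 and 2.08 CPM in mTEC hi, against 0.233, 0.397 and 0.533 CPM in mTEC lo (2.02, SE 0.215).

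**Figure D2:**
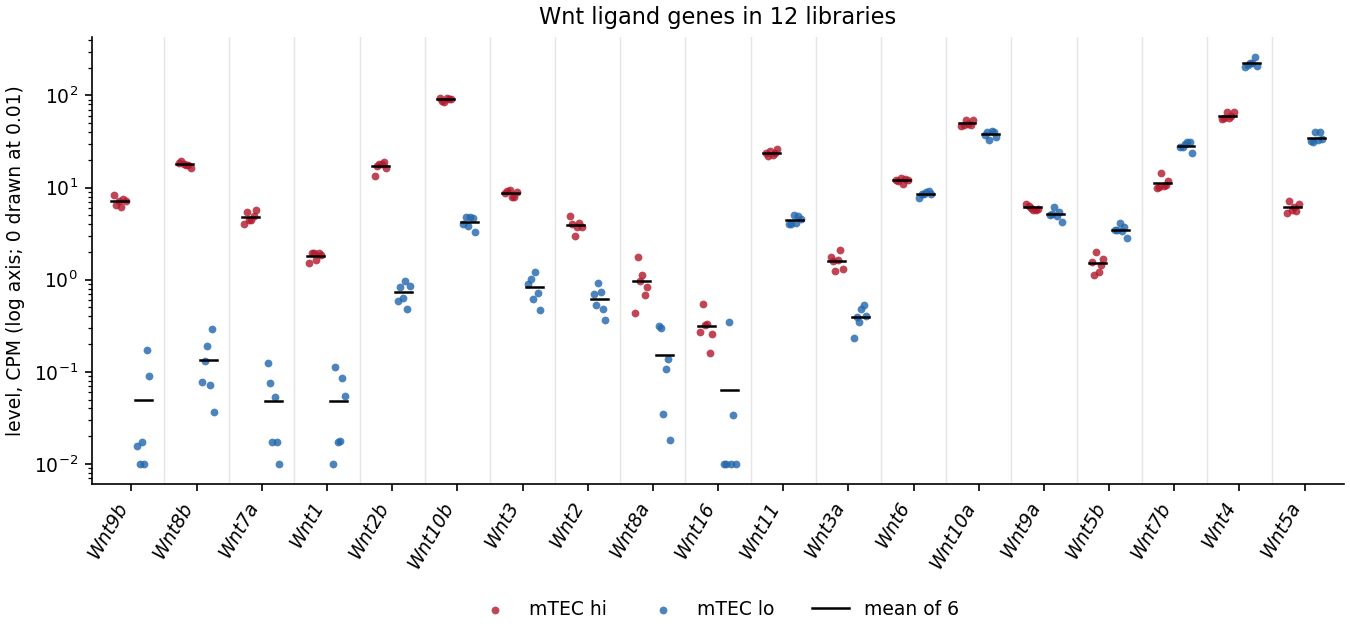
CPM of the 19 Wnt ligand genes on a log axis, with a point per library, red for mTEC hi and blue for mTEC lo, black lines for the means of 6 libraries and zeros drawn at 0.01; genes run from the largest rise to the largest fall. The clouds are far apart at both ends (Wnt9b, Wnt5a), and Wnt16 and Wnt9a overlap.

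Small rises were measured for 3 more ligands. Wnt6, an epithelial ligand, had 11.1, 12.1 and 12.7 CPM in mTEC hi, against 7.76, 8.48 and 9.18 CPM in mTEC lo (0.49, SE 0.0753). Wnt10a, required for teeth and skin appendages, had 46.7, 48.4 and 54.2 CPM in mTEC hi, against 32.6, 38.5 and 41.3 CPM in mTEC lo (0.40, SE 0.0622). Neither had overlapping libraries, although both changes were under 1.5-fold and neither gene passed a test of a minimum change of 1.5-fold. Wnt9a, a ligand of joint formation, had 5.71, 5.97 and 6.67 CPM in mTEC hi, against 4.21, 5.07 and 6.22 CPM in mTEC lo, and its ranges overlapped. Its change of 0.24 (SE 0.0981) passed at an adjusted p of 0.0309 in edgeR and missed at 0.0812 without the filter and at 0.0884 over the 8 libraries of undisputed genotype. It also missed, at 0.0572 to 0.103, when 1 of 7 libraries was left out: in each cell type Psmb11-deficient replicate 1, WT replicate 3 or replicate 1 titled WT, and in mTEC hi WT replicate 2. Wnt8a and Wnt16 were under a mean of 1 CPM in both cell types. Wnt8a, a ligand of the posterior body axis, ranged from 0.432 to 1.76 CPM in mTEC hi against 0.0181 to 0.311 CPM in mTEC lo (2.66, SE 0.475). Wnt16, known from bone, had 118 reads over the mTEC hi libraries and 22 over the mTEC lo libraries, of which 20 came from Psmb11-deficient replicate 2 and 2 from replicate 3 titled KO. Its adjusted p was 0.00625 over 12 libraries and 0.0563 over the 8 libraries of undisputed genotype.

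As background to their positions, 8 of the 19 ligand genes lie in 4 neighbouring pairs without another annotated gene between them (GENCODE M21, GRCm38). Wnt10b (chr15:98770712-98778150, minus strand) and Wnt1 (chr15:98789857-98793837, plus strand) diverge from each other with 11.7 kb between them, and rose by 4.42 and 5.24 on the log2 scale. Wnt9b (chr11:103727364-103749821, minus strand) and Wnt3 (chr11:103774150-103817957, plus strand) diverge over 24.3 kb and rose by 7.12 and 3.40. Wnt3a (chr11:59248033-59290752, minus strand) and Wnt9a (chr11:59306928-59333552, plus strand) diverge over 16.2 kb and had 2.02 and 0.24. Wnt6 (chr1:74771892-74785322) and Wnt10a (chr1:74791516-74804179) follow each other on the plus strand with 6.2 kb between them and had 0.49 and 0.40. All 8 genes were called higher in mTEC hi, as were 7 of the other 11 ligands and 44.2% of all genes tested. The call of Wnt9a was lost in several alternatives and its ranges overlapped, as given above. Whether neighbours changed together was not tested.

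The other 4 ligands fell, and all of them were well measured in mTEC lo. Wnt4, which regulates Foxn1 in thymic epithelium and is needed for kidney and the female reproductive tract, had 55.2, 58.6 and 66.5 CPM in mTEC hi, against 203, 219.6 and 261 CPM in mTEC lo (log2 fold change -1.89, SE 0.0666, adjusted p 4.16e-14, edgeR). Wnt5a, the ligand of limb outgrowth and planar polarity, had 5.35, 5.93 and 7.17 CPM in mTEC hi, against 31.5, 33.1 and 40.03 CPM in mTEC lo (-2.53, SE 0.0908). The ranges of both genes were clearly apart, with every mTEC hi library below every mTEC lo library. Wnt7b, an epithelial ligand of the lung, had 9.85, 10.5 and 14.4 CPM in mTEC hi, against 23.6, 28.8 and 31.4 CPM in mTEC lo (-1.36, SE 0.0945). Wnt5b, related to Wnt5a and known from cartilage, had 1.13, 1.51 and 1.996 CPM in mTEC hi, against 2.87, 3.44 and 4.16 CPM in mTEC lo (-1.23, SE 0.148). Exons of Wnt5a and Wnt7b overlap the opposite-strand genes Gm2670 and AU022754, and reads over the overlap cannot be assigned to either gene in libraries without strand. The summed markers of immature mTECs, tuft cells, cortical cells and epithelium in general were also lower in mTEC hi in the same libraries, without overlap, as given above, and their part in these falls was not tested.

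Among the receptors the largest change was that of Fzd2. Fzd2, a receptor used in palate development, had 6.498, 7.61 and 7.94 CPM in mTEC hi, against 115, 134 and 153 CPM in mTEC lo (log2 fold change -4.17, SE 0.0731, adjusted p 9.46e-18, edgeR). Fzd7, a receptor of epithelial stem cells in the gut and the closest relative of Fzd1 and Fzd2, had 58.9, 62.6 and 65.2 CPM in mTEC hi, against 197, 227 and 249 CPM in mTEC lo (-1.86, SE 0.0547). Each mTEC hi library lay below each mTEC lo library in both genes. Fzd1, the third gene of that subgroup, went the other way, with 65.2, 70.2 and 72.9 CPM in mTEC hi, against 38.03, 46.3 and 59.6 CPM in mTEC lo (0.53, SE 0.0844). Fzd8 had 7.11, 8.37 and 9.24 CPM in mTEC hi, against 30.9, 33.96 and 39 CPM in mTEC lo (-2.06, SE 0.0801). Its close relative Fzd5, a receptor in eye and gut, had 26.4, 28.4 and 30.8 CPM in mTEC hi, against 24.4, 27.8 and 30.8 CPM in mTEC lo, with overlapping ranges (0.03, SE 0.0603, adjusted p 0.632, edgeR). It was called higher with library size alone (0.32, adjusted p 9.35e-05) and in limma on TPM (0.33, adjusted p 0.0145). Within that subgroup the directions differed: Fzd1 rose where Fzd2 and Fzd7 fell.

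Fzd3, a receptor of axon guidance, had 4.01, 5.05 and 5.62 CPM in mTEC hi, against 12.1, 14.6 and 19.3 CPM in mTEC lo (-1.59, SE 0.114). Its relative Fzd6, which orients hair follicles in the skin, had 121, 129.5 and 134 CPM in mTEC hi, against 102, 110.3 and 121 CPM in mTEC lo (0.22, SE 0.0479, adjusted p 3.58e-04, edgeR). The Fzd6 ranges were separate by a narrow margin, and the change did not pass a minimum of 1.5-fold. Fzd4, the receptor of Norrin in retinal vessels, had 5.68, 6.34 and 7.68 CPM in mTEC hi, against 12.9, 13.7 and 15.8 CPM in mTEC lo (-1.11, SE 0.0902). Fzd10 had 16.3, 16.8 and 18.9 CPM in mTEC hi, against 31.8, 34.2 and 36.9 CPM in mTEC lo (-0.98, SE 0.0582). Both were lower in each mTEC hi library than in any mTEC lo library. Fzd9 was under a mean of 1 CPM in both cell types, with 0.392 to 1.37 CPM in mTEC hi against 0.0932 to 0.286 CPM in mTEC lo (2.12, SE 0.351). Exons of Fzd5 and Fzd6 overlap the opposite-strand genes Gm38058 and Gm26704, so reads over the overlap cannot be assigned to either gene.

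**Figure D3:**
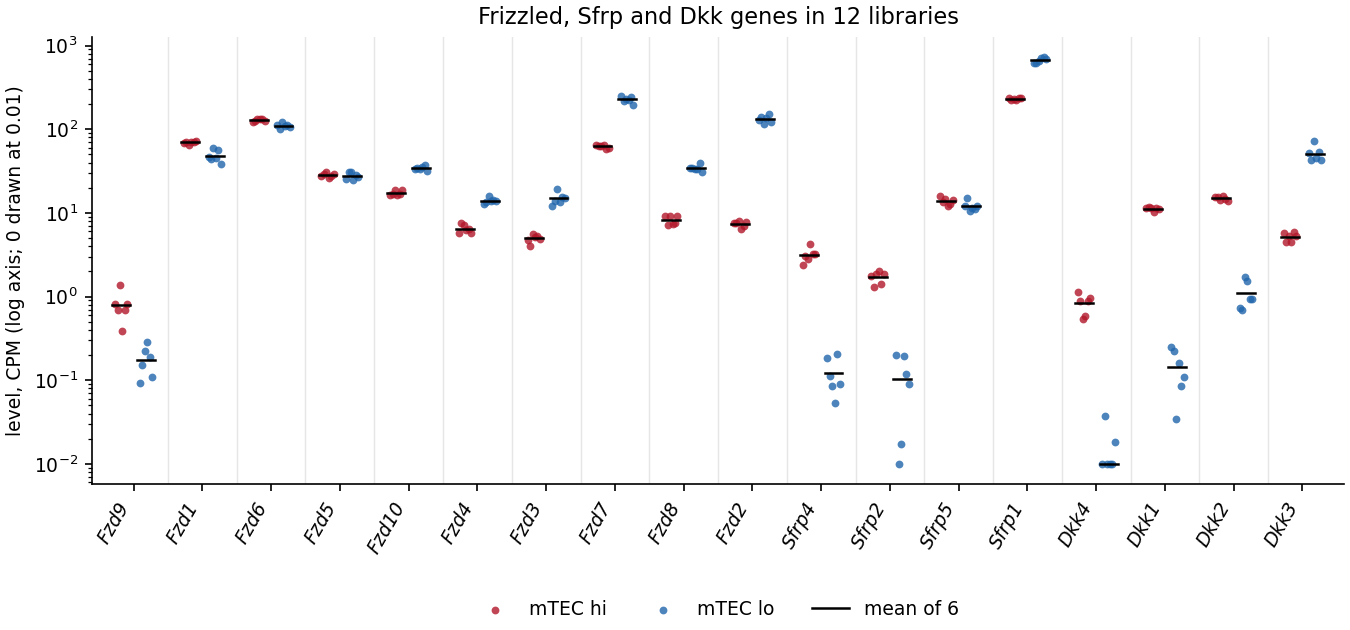
CPM of the 10 Frizzled, 4 Sfrp and 4 Dkk genes on a log axis, with a point per library, red for mTEC hi and blue for mTEC lo, black lines for the means of 6 libraries and zeros drawn at 0.01. Fzd7, Fzd2, Sfrp1 and Dkk3 lie higher in mTEC lo, Sfrp2, Sfrp4, Dkk1, Dkk2 and Dkk4 higher in mTEC hi, and Fzd5 and Sfrp5 overlap.

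The inhibitors divided within each family. Sfrp1, the member with the highest TPM in both cell types, had 224, 233 and 239 CPM in mTEC hi, against 613, 673 and 729 CPM in mTEC lo (log2 fold change -1.54, SE 0.0531, adjusted p 3.19e-14, edgeR). Sfrp2, known from mesenchyme, had 1.297, 1.81 and 2.02 CPM in mTEC hi, against 0, 0.106 and 0.202 CPM in mTEC lo (4.001, SE 0.383). Sfrp4, known from bone and uterus, had 2.41, 3.12 and 4.26 CPM in mTEC hi, against 0.0536, 0.102 and 0.206 CPM in mTEC lo (4.64, SE 0.261). Both of these stayed at low levels and were higher in every mTEC hi library than in any mTEC lo library. The summed fibroblast and pericyte markers overlapped between the cell types, at 916 to 961 CPM in mTEC hi against 928 to 1052 CPM in mTEC lo. Singly, 5 of these 10 markers were higher in mTEC hi and 4 lower, and the part of such cells in the rises of Sfrp2 and Sfrp4 was not tested. Exons of Sfrp2 overlap the opposite-strand gene Gm26771. Sfrp5 had 12.04, 13.9 and 15.7 CPM in mTEC hi, against 10.6, 11.7 and 14.9 CPM in mTEC lo, and its ranges overlapped. Its change of 0.20 (SE 0.0918) missed the threshold at an adjusted p of 0.0588 in edgeR and passed in several alternatives, with the largest changes for limma on TPM (0.56, adjusted p 0.0034) and library size alone (0.48, adjusted p 0.00028). The adjusted p was 0.0142 with RLE factors, 0.0125 in DESeq2, 0.0196 with RSEM counts, 0.0188 over the 8 libraries of undisputed genotype, and 0.0440 and 0.0443 with the replicate blocks. It also passed, at 0.00777 to 0.0391, without WT replicate 2 or replicate 3 titled KO of mTEC hi, or without replicate 1 titled WT of mTEC lo.

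Of the Dkk genes, Dkk1, the inhibitor of Lrp5 and Lrp6 that is required for head formation, had 10.2, 11.4 and 11.6 CPM in mTEC hi, against 0.0345, 0.135 and 0.248 CPM in mTEC lo (log2 fold change 6.25, SE 0.216, adjusted p 3.15e-14, edgeR). Dkk2, known from the eye surface and skin, had 13.9, 15.04 and 15.9 CPM in mTEC hi, against 0.697, 0.927 and 1.73 CPM in mTEC lo (3.78, SE 0.182). Dkk4, a Dkk gene of developing hair follicles, had 323 reads in mTEC hi and 3 in mTEC lo. Relative to the TMM-scaled library sizes summed over each cell type, that is a ratio of 95.4, with an exact 95% interval of 32.4 to 465.2 that covers counting error only. Dkk4 stayed under a mean of 1 CPM, with 0.542 to 1.13 CPM in mTEC hi against 0 to 0.0377 CPM in mTEC lo. Dkk1 and Dkk4 met the filter on low counts in mTEC hi alone, so their calls are no independent support for a rise. Dkk3, a divergent member that does not act through Lrp6, was opposite to the other three, with 4.45, 5.26 and 5.903 CPM in mTEC hi, against 42.6, 48.6 and 71.6 CPM in mTEC lo (-3.29, SE 0.1001).

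Levels of different genes were compared per length with the deposited TPM, as means ± SD over 6 libraries. In mTEC hi the leading ligand was Wnt10b (63.8 ± 2.53 TPM), followed by Wnt10a (35.1 ± 2.77 TPM), Wnt11 (25.2 ± 2.29 TPM) and Wnt4 (24.05 ± 1.72 TPM). Library ranges of neighbours in this order were separate except those of Wnt11 and Wnt4. In mTEC lo the order was Wnt4 (71.2 ± 5.12 TPM), Wnt10a (21.7 ± 2.69 TPM), Wnt7b (12.02 ± 1.28 TPM) and Wnt5a (10.5 ± 0.994 TPM), and only Wnt7b and Wnt5a overlapped among these. Wnt4 alone made up 11.7% ± 0.456 of the summed ligand TPM in mTEC hi and 53.5% ± 1.496 in mTEC lo, and Wnt10b 31.1% ± 1.87 in mTEC hi and 1.82% ± 0.237 in mTEC lo. The share of Wnt10a was 17.1% ± 0.988 in mTEC hi and 16.3% ± 1.44 in mTEC lo. At least 1 TPM in all 6 libraries was reached by 15 ligands in mTEC hi and 9 in mTEC lo.

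The receptors changed their order as well. In mTEC hi the leading receptor was Fzd6 (52.1 ± 2.697 TPM), then Fzd1 (28.4 ± 1.55 TPM) and Fzd7 (22.8 ± 1.01 TPM). In mTEC lo it was Fzd7 (65.96 ± 4.75 TPM), then Fzd2 (50.4 ± 6.397 TPM) and Fzd6 (35.5 ± 1.24 TPM), and ranges of neighbours among these were separate in both cell types. Fzd2 stood seventh in mTEC hi with 3.505 ± 0.313 TPM, a level whose range overlapped that of Fzd8 (4.003 ± 0.552 TPM). Fzd6 held 39.3% ± 1.24 of the summed receptor TPM in mTEC hi and 16.98% ± 1.19 in mTEC lo. The same 9 of 10 receptors, all but Fzd9, reached 1 TPM in all 6 libraries of both cell types. Of the inhibitors, Sfrp1 held 70.8% ± 0.853 of the summed TPM in mTEC hi and 87.3% ± 1.72 in mTEC lo. Dkk3 held 13.7% ± 1.75 of the summed Dkk TPM in mTEC hi and 97.6% ± 0.899 in mTEC lo, while Dkk1 and Dkk2 held 43.3% ± 1.305 and 37.1% ± 2.38 in mTEC hi. Summed over the role, ligands had 206 ± 7.36 TPM in mTEC hi and 133 ± 8.85 TPM in mTEC lo, receptors 132 ± 3.45 TPM in mTEC hi and 209.5 ± 10.1 TPM in mTEC lo, and Sfrp genes 106 ± 2.38 TPM in mTEC hi and 214 ± 17.6 TPM in mTEC lo. The Dkk sum was 18.7 ± 0.781 TPM in mTEC hi and 20.7 ± 3.05 TPM in mTEC lo. TPM is relative to all RNA of a library, and the mean transcript lengths in the deposited tables overlapped between the cell types for all 37 members.

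**Figure D4:**
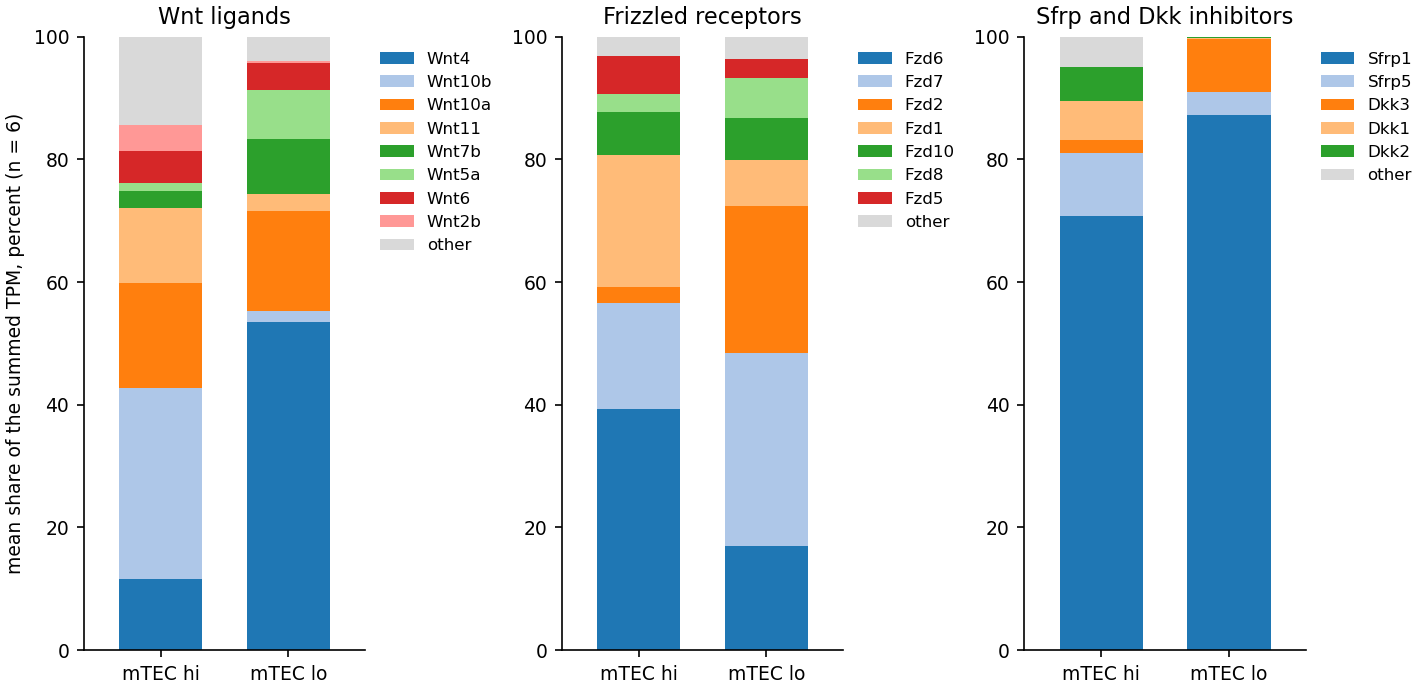
Mean share of each gene in the summed TPM of the ligands, receptors and inhibitors (Sfrp and Dkk together) over 6 libraries, with mTEC hi on the left and mTEC lo on the right; genes under 4% in both are joined as other. Wnt4 takes 11.7% in mTEC hi and 53.5% in mTEC lo, and Wnt10b is the largest ligand share in mTEC hi with 31.1%.

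Genes that act before and after these members were described from lists drawn up for this comparison. Over all genes tested, 44.2% rose and 38.0% fell. Of 24 genes for Wnt secretion, co-receptors and R-spondins, 10 rose (41.7%), 13 fell (54.2%) and 1 did not pass, with a median log2 fold change of -0.39. Rspo2 and Rspo3, secreted proteins that raise receptor levels, rose by 5.48 and 5.36 on the log2 scale, with 4.92 ± 0.504 CPM in mTEC hi against 0.107 ± 0.0593 CPM in mTEC lo for Rspo2 and 3.76 ± 0.401 CPM in mTEC hi against 0.0905 ± 0.0516 CPM in mTEC lo for Rspo3. Ptk7, a polarity co-receptor, fell by 2.53, with 31.9 ± 1.84 CPM in mTEC hi against 184 ± 14.1 CPM in mTEC lo. Porcn, the enzyme that attaches the lipid to Wnt proteins, fell by 2.17, with 3.702 ± 0.611 CPM in mTEC hi against 16.6 ± 1.35 CPM in mTEC lo. Of the genes listed as other Wnt antagonists, 15 of 16 were tested, of which 10 rose (66.7%) and 5 fell (33.3%), with a median of 0.97. Sost, an inhibitor that binds Lrp5 and Lrp6 in bone, rose by 6.06, with 12.8 ± 2.09 CPM in mTEC hi against 0.194 ± 0.111 CPM in mTEC lo. Frzb, a gene of the Sfrp family, rose by 4.59, with 3.65 ± 0.739 CPM in mTEC hi against 0.154 ± 0.1399 CPM in mTEC lo. Igfbp4, a growth factor binding protein that can also bind Frizzled, fell by 4.05, with 42.1 ± 4.35 CPM in mTEC hi against 699.8 ± 76.4 CPM in mTEC lo. Shisa2, which holds Frizzled inside the cell, fell by 2.84, with 63.2 ± 2.63 CPM in mTEC hi against 454 ± 24.4 CPM in mTEC lo.

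Of 31 genes of the beta-catenin cascade, 4 rose (12.9%), 22 fell (71.0%) and 5 did not pass (median -0.52), beside 44.2% and 38.0% of all genes. Tcf7, a partner of beta-catenin best known from T cells, rose by 2.39, with 109 ± 13.4 CPM in mTEC hi against 21.3 ± 6.34 CPM in mTEC lo. Summed thymocyte markers overlapped in the same libraries, at 99.8 to 231 CPM in mTEC hi against 91.9 to 154.9 CPM in mTEC lo. Singly, 7 of these 14 markers were higher in mTEC hi and 2 lower, and the part of thymocytes in the Tcf7 rise was not tested. Ctnnbip1, which blocks the binding of beta-catenin to Tcf factors, rose by 0.41, with 31.8 ± 1.902 CPM in mTEC hi against 23.9 ± 1.53 CPM in mTEC lo. Pygo1, a nuclear cofactor of beta-catenin, fell by 2.76, with 6.899 ± 0.8704 CPM in mTEC hi against 46.8 ± 2.74 CPM in mTEC lo, and Tle4, a corepressor of Tcf factors, fell by 1.47, with 36.04 ± 2.26 CPM in mTEC hi against 99.8 ± 3.01 CPM in mTEC lo. Of 20 tested of 21 known target genes, 8 rose, 8 fell and 4 did not pass (median 0.15), so 80.0% were called, near the 82.1% of all genes. The lists share genes, so their counts are not separate. Of the target genes, Axin2, Lef1 and Tcf7 are also on the cascade list and Nkd1, Nkd2 and Apcdd1 on the antagonist list. Notum, Rnf43, Znrf3 and Lgr5 are also on the secretion list. Notum, an enzyme that removes the lipid from Wnt proteins and is also on the list of secretion genes, rose by 4.99 with 2.73 ± 0.273 CPM in mTEC hi against 0.0837 ± 0.01904 CPM in mTEC lo, and Cdx1, an intestinal transcription factor, rose by 3.60 with 276 ± 12.8 CPM in mTEC hi against 22.7 ± 2.18 CPM in mTEC lo. Bmp4 fell by 1.84, with 0.6101 ± 0.174 CPM in mTEC hi against 2.14 ± 0.271 CPM in mTEC lo, and Sox9, a transcription factor of cartilage and epithelial progenitors, fell by 1.73, with 99.2 ± 7.55 CPM in mTEC hi against 329 ± 19.3 CPM in mTEC lo. Of 16 tested of 17 planar polarity genes, 5 rose (31.2%), 9 fell (56.2%) and 2 did not pass (median -0.56). Daam2, a formin, and Dact3, a Dishevelled-binding protein, rose by 2.87 and 1.09, with 32.4 ± 2.85 CPM in mTEC hi against 4.43 ± 0.5898 CPM in mTEC lo for Daam2 and 3.81 ± 0.538 CPM in mTEC hi against 1.79 ± 0.43 CPM in mTEC lo for Dact3. Ankrd6, known as Diversin, and Prickle1, a core polarity protein, fell by 3.08 and 2.18, with 12.8 ± 0.587 CPM in mTEC hi against 108 ± 7.17 CPM in mTEC lo for Ankrd6 and 4.39 ± 0.591 CPM in mTEC hi against 19.8 ± 1.804 CPM in mTEC lo for Prickle1.

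The effect of Psmb11 deficiency on the members was compared within each cell type over the 8 libraries of undisputed genotype. No member was called in mTEC hi, where edgeR called 1 of 26642 genes (0.00375%), and none had an unadjusted p under 0.05 (3.45% of all genes). No member was called in mTEC lo, where edgeR called 4 genes (0.0150%), and 4 of 37 members had an unadjusted p under 0.05 (11.3% of all genes): Dkk3, Fzd1, Wnt16 and Wnt2b. All Wnt16 reads of these mTEC lo libraries, 20, came from Psmb11-deficient replicate 2. Wnt2b was low, with 0.590 and 0.639 CPM in the Psmb11-deficient libraries of mTEC lo against 0.965 and 0.853 CPM in the WT libraries. For the interaction of genotype and cell type no member and no gene was called (0%), and Fzd1 and Wnt16 had an unadjusted p under 0.05 (4.41% of all genes). DESeq2 and limma called no member in any of these contrasts. Nor was a member called over all 12 libraries with genotype taken from the title, which the Psmb11 levels followed, or from the source name. Values of 4 leading members follow for both genotypes. In mTEC hi Wnt10b had 92.9 and 84.7 CPM in the Psmb11-deficient libraries, against 94.3 and 92.3 CPM in the WT libraries, a log2 difference of -0.06 (SE 0.114). In mTEC lo Wnt4 had 203 and 226 CPM in the Psmb11-deficient libraries, against 223 and 209.5 CPM in the WT libraries, a difference of -0.02 (SE 0.104). Fzd7 had 249 and 229 CPM in the Psmb11-deficient libraries, against 226 and 197 CPM in the WT libraries of mTEC lo (0.17, SE 0.0916), and Sfrp1 had 613 and 649 CPM in the Psmb11-deficient libraries, against 719.8 and 698 CPM in the WT libraries of mTEC lo (-0.18, SE 0.0854). A test of 2 against 2 libraries can miss changes of this size, so these values do not show that the genotypes were alike.

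The members with the lowest p in mTEC lo were Dkk3 and Fzd1. Dkk3 had 52.1 and 71.6 CPM in the Psmb11-deficient libraries, against 45.1 and 42.7 CPM in the WT libraries, with a log2 fold change of 0.49 (SE 0.137) and an adjusted p of 0.2499 in edgeR. The mTEC lo library titled KO with WT as source had 53.6 CPM and the one titled WT with KO as source 42.6 CPM. Fzd1 had 46.7 and 59.6 CPM in the Psmb11-deficient libraries, against 45.8 and 38.03 CPM in the WT libraries, with a log2 fold change of 0.34 (SE 0.116) and an adjusted p of 0.315. The library titled KO had 57.2 CPM and the one titled WT 43.6 CPM. In both genes Psmb11-deficient replicate 2 was the highest of these 4 libraries, and the genotypes did not overlap, by a narrow margin in Fzd1. Both genes were picked for their low p, so this separation is no support for a genotype effect. Without replicate 1 of the Psmb11-deficient mTEC lo libraries, which leaves that group a single library assumed to vary like the others, Dkk3 passed at 0.70 (adjusted p 0.0101), Fzd1 at 0.51 (adjusted p 0.0468) and Wnt16 also passed (adjusted p 0.0298). Without the filter on low counts Dkk3 (adjusted p 0.00880) and Wnt16 (adjusted p 0.0167) passed in edgeR. In both settings the Wnt16 result rests on the 20 reads of Psmb11-deficient replicate 2. In mTEC hi the lowest p belonged to Sfrp4 and Fzd9. Sfrp4 had 2.41 and 2.84 CPM in the Psmb11-deficient libraries, against 4.26 and 3.23 CPM in the WT libraries (-0.51, SE 0.311), and Fzd9 had 0.815 and 1.37 CPM in the Psmb11-deficient libraries, against 0.392 and 0.825 CPM in the WT libraries (0.88, SE 0.581), both with an adjusted p of 1. For the interaction the lowest p belonged to Fzd1, with a difference of log2 fold changes, mTEC hi minus mTEC lo, of -0.43 (SE 0.164, adjusted p 0.9998), and to Wnt16, whose mTEC lo reads came nearly all from 1 library as given above.

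**Figure D5:**
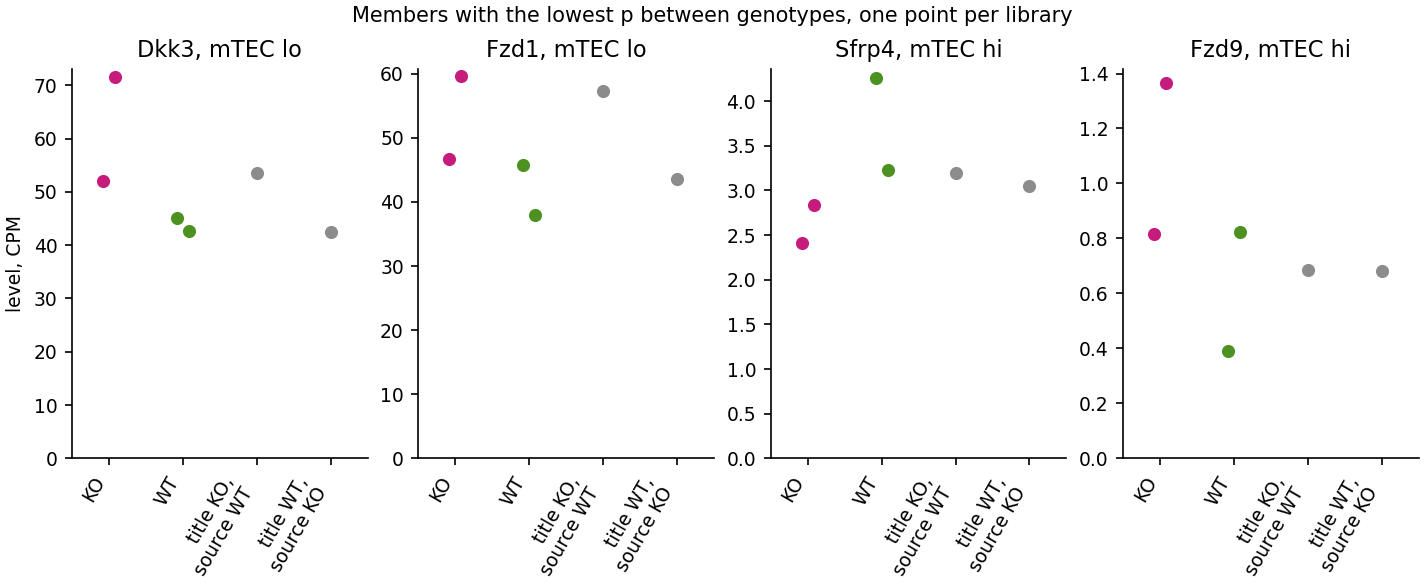
CPM per library, with axes from 0, of the members with the lowest p between genotypes: Dkk3 and Fzd1 in mTEC lo, Sfrp4 and Fzd9 in mTEC hi; grey points are the libraries whose title and source name conflict. In mTEC lo Dkk3 spans 52.1 to 71.6 CPM in Psmb11-deficient libraries and 42.7 to 45.1 CPM in WT libraries, and in mTEC hi Fzd9 spans 0.815 to 1.37 CPM in Psmb11-deficient libraries and 0.392 to 0.825 CPM in WT libraries.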

How the data were processed

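Per the labels' protocols, TruSeq libraries were made from polyadenylated RNA after TRIzol and RNeasy extraction. For each of 12 libraries the authors deposited read counts per gene as whole numbers, in a column that ignores strand and one for each strand, and a table of RSEM expected counts, TPM and lengths, per the file headers. CASAVA 1.8.2, STAR 2.5.1b, RSEM 1.2.28 and the build name GRCh38 are listed in the submitters' processing notes; the identifiers are those of mouse genes, and no source used here gives the annotation. Of the reads in both strand columns, 50.4% to 50.8% lay in the first, so the column that ignores strand was used. Reads at no gene (14.2% to 17.2% in mTEC hi, 8.26% to 12.1% in mTEC lo) were left out. Totals of expected counts were 0.507 to 0.535 of the read totals. Of 50600 identifiers 50376 had a symbol in GENCODE M21, and 29 of 37 members had the same version there.

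Low genes were removed with filterByExpr (count minimum 10, total minimum 15). The count minimum is the CPM of 10 reads in a library of median size. It must be reached in as many libraries as the smallest group holds, not in every library. TMM-scaled counts were compared by the quasi-likelihood F test of edgeR 4.0.16 in R 4.3.3. Benjamini-Hochberg adjustment was made over all genes tested, with a threshold of 0.05. Cell types were compared over 12 libraries with 3 genotype classes (deficient, WT, conflicting labels) as covariate, and genotypes over 8 libraries as 4 groups, which leaves 4 residual degrees of freedom. The root of the common dispersion was 0.115 and 0.125. CPM values are TMM-scaled. Standard errors are the log2 fold change over the root of F. limma 3.58.1 on log2(TPM + 0.1), DESeq2 1.42.0, RLE factors, library size, RSEM counts rounded to whole numbers, no filter, a minimum change of 1.5-fold, each library left out, the 8 libraries, genotype by title or source name, and the title number as a block were alternatives. The script was tested on simulated data. No libraries were near duplicates.

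Members and lists were chosen with earlier results of these data known. All members are named: those with a mean of at least 1 CPM in a cell type by lowest, median and highest library, the others by range. The 2 members of lowest p are named for each genotype contrast, and for each other Wnt list the 2 called genes of largest change each way with a mean of at least 1 CPM. Of 177 listed genes 1 had no identifier.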

Additional observations from a re-analysis of the deposited data

Results flagged for a closer look

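In 2 of 55 sets of 6 libraries, 1 library stood far from the others by Dixon's test; chance flags about 1 in 20 such sets. Dkk1 in mTEC hi had 10.2 CPM in WT replicate 2, against 11.1 CPM in the next library and 11.6 CPM in the highest. Sfrp5 in mTEC lo had 14.9 CPM in replicate 1 titled WT with KO as source, against 12.2 CPM in the next library and 10.6 CPM in the lowest.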

How the results depend on the processing

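Between the cell types, members called were 22 to 25 higher and 12 lower under every alternative except a minimum change of 1.5-fold (18 and 12, with 12958 genes called in place of 19649). Wnt6, Wnt9a, Wnt10a, Fzd1 and Fzd6 were not called there. Fzd5 was called with library size alone and in limma, and Sfrp5 in the alternatives given with its values. Fzd5, otherwise not called, ranged from -0.0033 to 0.057 when a library was left out, and was at -0.0033 without mTEC lo Psmb11-deficient replicate 1. Counts of genes called between genotypes depended on the setting. In mTEC hi (1 gene), DESeq2 called 3, no filter 42, RSEM counts 3, limma 18, genotype from the source name 0, and leaving out a library gave 0 to 2 (0 without Psmb11-deficient replicate 1 or WT replicate 2, 2 without Psmb11-deficient replicate 2 of mTEC hi). In mTEC lo (4 genes), library size called 9, DESeq2 147, no filter 660, genotype from the source name 2, and leaving out a library gave 1 to 323, with 263 and 323 without Psmb11-deficient replicates 1 and 2 of mTEC lo, 18 and 22 without its WT replicates 2 and 3, and 1 without either WT library of mTEC hi. Members called higher in mTEC lo were 2 with no filter and 0 to 3 with a library left out (3 without Psmb11-deficient replicate 1). For the interaction (0 genes), DESeq2 called 4, no filter 141, RSEM counts 2, limma 12, and leaving out a library gave 0 to 49 (49 and 14 without Psmb11-deficient replicates 1 and 2 of mTEC lo, 5 and 6 without its WT replicates 2 and 3). The interaction of Wnt16 ranged from -7.34 to 0.0032, the upper value without mTEC lo Psmb11-deficient replicate 2. The cause was not tested. With a replicate block by title number, 45 genes were called in mTEC lo, 13 with genotype from the title as well, and 7 for the interaction. The mTEC hi and mTEC lo libraries of one title correlated by 0.00923 to 0.117, over 0.1 in 2 of 6 pairs. Of the 6 mTEC hi libraries, 3 correlated best with the mTEC lo library of their own title and 4 with one of their own number. The labels give the number no meaning, and it was not taken to pair the libraries. Of the single genes, 923 values kept direction and call, 16 gained a call, 15 lost one and 2 reversed.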
